A study of Homo sapiens with 8 samples.

Results

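EGR1, EGR3, EGR4, NR4A1, NR4A2, NR4A3, IER2, IER3 and SRF were examined as a set of immediate early genes and 1 of their main regulators, in SKBR3 cells given estradiol, albumin-coupled estradiol, G15 or ICI. The members were chosen by name: every probe set that the platform annotation assigns to 1 of 10 listed symbols was taken, 20 probe sets of 9 genes among the 19775 genes measured. None of the 20 carried a second symbol, and no probe set was listed for EGR2. SKBR3 is a human breast cancer line with amplified HER2. It is generally regarded as negative for estrogen receptor alpha and as carrying GPER, a membrane receptor for estradiol. The study hybridized 8 expression arrays, 1 per condition, to RNA taken 3 h after treatment. Before treatment all cells, untreated ones included, were kept for 4 h in medium whose 10% serum had been stripped with charcoal to take out steroids. The conditions were ethanol at 0.1% (the vehicle of estradiol), estradiol at 1e-06 M, the albumin conjugate of estradiol, E2-BSA, at 1e-06 M, E2-BSA at 1e-06 M plus ICI at 1e-05 M, E2-BSA at 1e-06 M plus G15 at 1e-05 M, G15 alone at 1e-05 M, the carrier BSA at 1e-06 M, and untreated cells. G15 is an antagonist of GPER, and ICI is named only by that abbreviation in the labels.

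Immediate early genes are transcribed within minutes of a stimulus from factors already present in the cell, and most of their transcripts are short-lived, so that an array taken hours later shows what is left or sustained. The EGR genes encode zinc-finger transcription factors. Their best known switch is the serum response element, a CArG box bound by SRF together with ELK-type partners that the ERK kinases phosphorylate. The NR4A genes encode orphan nuclear receptors, known for strong induction by cAMP and CREB as well as by growth factors and stress. IER2 encodes a small nuclear protein, and IER3 encodes a stress-responsive protein linked to cell survival and to NF-kB signalling. GPER is widely described as signalling through ERK and cAMP, and EGR1 is among the genes often used as a readout of that route.

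The deposited values are centred for each probe set and were read as log2 values, so they show how a gene differs between arrays and not how strongly it is expressed. Levels were therefore not compared between genes, and neither the presence of any member nor the identity of the cells by their markers could be checked. A gene is the mean of its probe sets, and a difference is the value of 1 array minus that of another. A difference of at least 1 in size is called 2-fold, and the lower threshold used below is 1.5-fold. With 1 array per condition no difference has a replicate error, a test or a p-value. As a yardstick, BSA minus untreated, a pair without hormone, G15 or ICI, had an SD over all genes of 0.166. The ethanol array stood apart from the rest: ethanol minus untreated had an SD of 0.304, and 172 genes were at least 2-fold higher. Differences of the members from that array are given below beside differences from the untreated and BSA arrays. The labels do not state how much ethanol the estradiol cells received. RNA came from whole cultures, in which a change in the share of responding cells and a change in RNA per cell cannot be told apart.

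**Figure D1:**
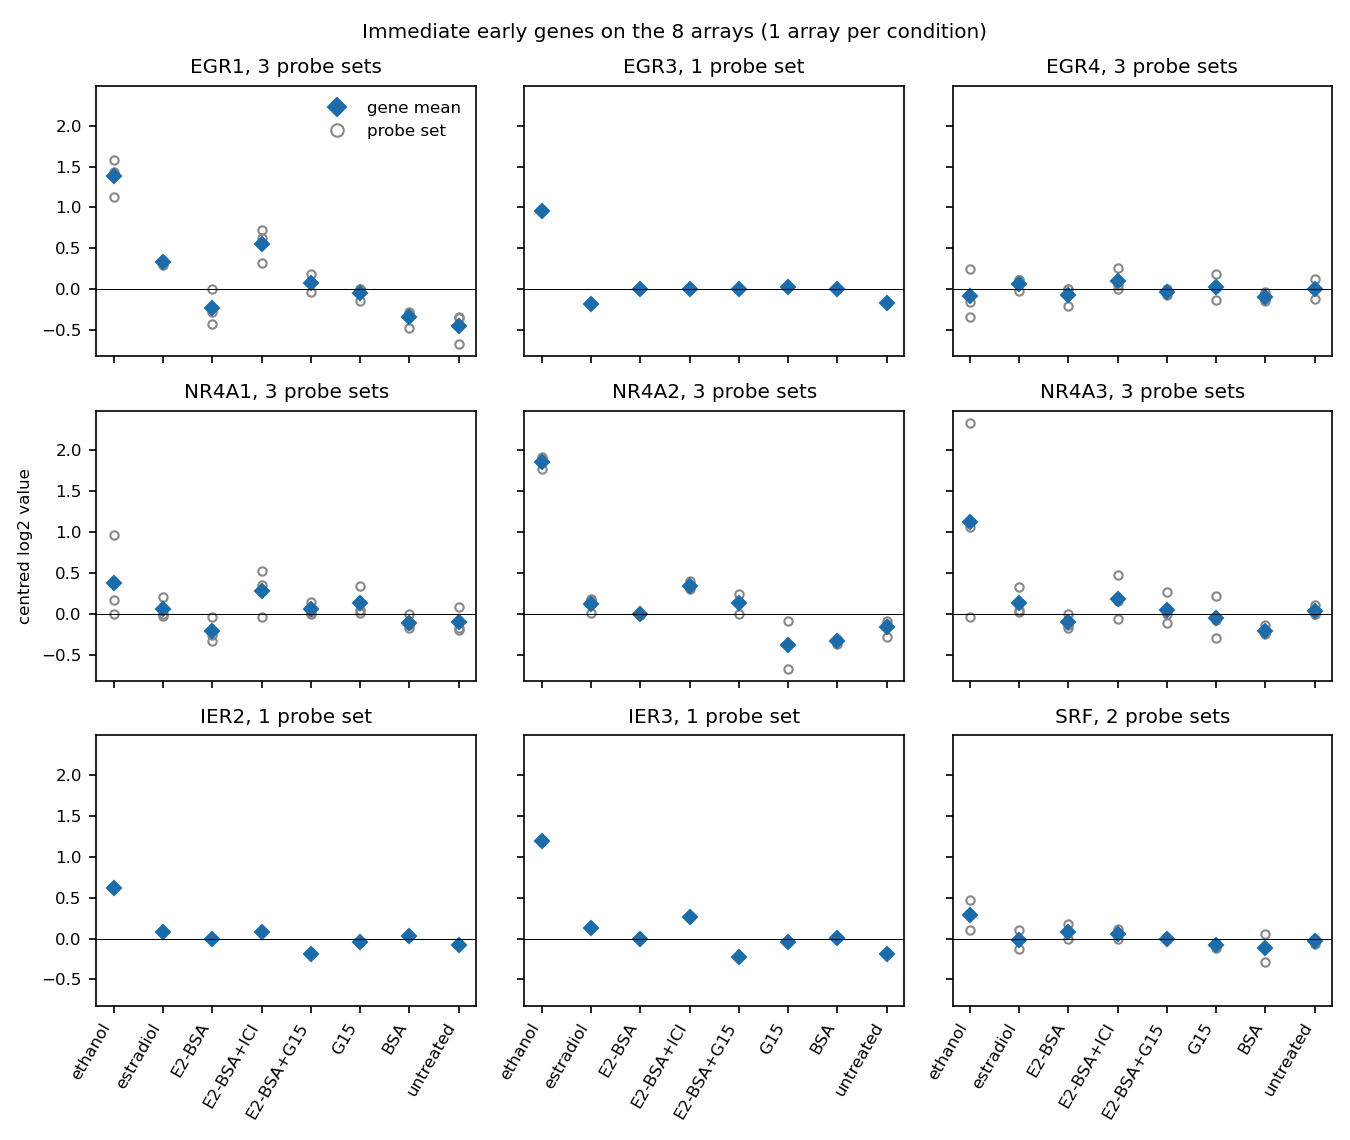
Centred log2 values (y axis) of the 9 genes on each of the 8 arrays (x axis). Filled diamonds are gene means and open circles are single probe sets, which are not replicates. Ethanol holds the highest gene mean for 8 of the 9 genes, and E2-BSA+ICI holds it for EGR4, where 19.6% of all genes are highest with ethanol.

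EGR1 was the EGR gene that varied most. Its gene mean stood at 1.38 with ethanol, 0.33 with estradiol, -0.23 with E2-BSA, 0.56 with E2-BSA plus ICI, 0.08 with E2-BSA plus G15, -0.05 with G15, -0.35 with BSA and -0.46 in untreated cells. Without the ethanol array it still ranged over 1.01, and it was the only member with a range of at least 1 there, as 0.238% of all genes did. Its 3 probe sets ran together: the correlation between any 2 of them was 0.87 or more over the 8 arrays and 0.86 or more over the 7 arrays other than ethanol. Their order differed. 201693_s_at stood at 0.34 with estradiol and 0.31 with E2-BSA plus ICI. 201694_s_at stood at 0.30 and 0.63 there, and 227404_s_at at 0.34 and 0.72. With E2-BSA they stood at 0.00, -0.28 and -0.43. Of the 7 gaps between neighbours in the order of the EGR1 gene mean, 3 were below the yardstick of 0.166. E2-BSA plus G15 and G15 were apart by 0.13, E2-BSA and BSA by 0.11, and BSA and untreated by 0.11. The other 4 gaps were larger than the yardstick.

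EGR3, an EGR1 relative with its own roles in muscle spindles and lymphocytes, was measured by 1 probe set. It stood at 0.95 with ethanol, -0.19 with estradiol, 0.03 with G15 and -0.17 in untreated cells, and at exactly 0 on the other 4 arrays. Apart from ethanol its values spanned 0.22. EGR4, known mainly from neurons and the germ line, lay between -0.10 (BSA) and 0.10 (E2-BSA plus ICI), a range of 0.20 that included ethanol at -0.09. Its 3 probe sets did not follow each other, with correlations between -0.49 and 0.53 over the 8 arrays.

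The promoters of EGR1 and EGR4 are shown because these were the EGR genes that varied most and least. Both are RefSeq windows in build GRCh38.p14, from 250 bases before to 50 after the annotated start, at chr5:138465229-138465528 on the plus strand for EGR1 and chr2:73293499-73293798 on the minus strand for EGR4. Capitals mark CArG boxes and the CRE half-site TGACG, on either strand.
EGR1: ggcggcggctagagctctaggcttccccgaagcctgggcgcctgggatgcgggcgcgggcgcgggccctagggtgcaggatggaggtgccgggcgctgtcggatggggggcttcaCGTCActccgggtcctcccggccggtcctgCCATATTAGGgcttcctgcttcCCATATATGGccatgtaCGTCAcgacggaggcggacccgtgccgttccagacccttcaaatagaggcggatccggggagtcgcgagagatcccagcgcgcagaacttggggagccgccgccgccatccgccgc
EGR4: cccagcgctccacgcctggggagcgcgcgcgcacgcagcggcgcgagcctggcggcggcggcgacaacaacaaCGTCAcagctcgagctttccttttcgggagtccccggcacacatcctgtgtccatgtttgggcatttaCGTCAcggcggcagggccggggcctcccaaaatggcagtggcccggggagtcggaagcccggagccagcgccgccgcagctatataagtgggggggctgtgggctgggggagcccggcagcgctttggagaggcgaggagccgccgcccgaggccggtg
EGR1 held 2 CArG boxes, at 105 to 96 and 83 to 74 bases before the start, and EGR4 held 0. A CArG box was present in 1.29% of the 35116 promoter windows of the same length. Both genes held 2 CRE half-sites, a word found in 24.6% of all windows. A match is a description of letters and does not show that a factor binds.

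NR4A2, a receptor best known from dopaminergic neurons, had the widest range of all members, 2.24. It stood at 1.86 with ethanol, 0.12 with estradiol, -0.01 with E2-BSA, 0.34 with E2-BSA plus ICI, 0.13 with E2-BSA plus G15, -0.38 with G15, -0.33 with BSA and -0.17 in untreated cells. All 3 of its probe sets ran together, with correlations of 0.96 or more over the 8 arrays and between 0.78 and 0.96 without ethanol. Estradiol and E2-BSA+G15, at 0.12 and 0.13, were neighbours that did not differ beyond the yardstick, and neither did G15 and BSA. Estradiol and E2-BSA, apart by 0.13, and E2-BSA and untreated cells, apart by 0.16, were also below it. BSA and untreated cells were apart by 0.166, level with the yardstick.

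NR4A3, which shares its DNA-binding fold with NR4A1 and NR4A2, stood at 1.12 with ethanol, 0.13 with estradiol, -0.11 with E2-BSA, 0.19 with E2-BSA plus ICI, 0.05 with E2-BSA plus G15, -0.05 with G15, -0.21 with BSA and 0.04 in untreated cells. Its gene mean hid 3 unlike probe sets. On the ethanol array they stood at 2.34, 1.07 and -0.04, so that 1 of them lacked the difference that the other 2 showed.

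NR4A1, the relative most closely tied to growth factor and stress responses, was lower in amplitude: 0.38 with ethanol, 0.06 with estradiol, -0.21 with E2-BSA, 0.28 with E2-BSA plus ICI, 0.06 with E2-BSA plus G15, 0.13 with G15, -0.11 with BSA and -0.10 in untreated cells. Here too the probe sets disagreed. 202340_x_at stood at 0.97 with ethanol and 0.53 with E2-BSA plus ICI, against -0.20 in untreated cells, and 211143_x_at at 0.17 with ethanol and 0.35 with E2-BSA plus ICI, against -0.17 in untreated cells. The third, 210226_at, stood at 0.00 with ethanol and -0.04 with E2-BSA plus ICI, against 0.08 in untreated cells. The ending _x_at marks probe sets that may also match other transcripts, and without them NR4A1 differed by -0.08 between ethanol and untreated.

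The promoter of NR4A3 is shown for its series of CRE half-sites. It is the RefSeq window at chr9:99821635-99821934, plus strand, build GRCh38.p14, with capitals as above.
NR4A3: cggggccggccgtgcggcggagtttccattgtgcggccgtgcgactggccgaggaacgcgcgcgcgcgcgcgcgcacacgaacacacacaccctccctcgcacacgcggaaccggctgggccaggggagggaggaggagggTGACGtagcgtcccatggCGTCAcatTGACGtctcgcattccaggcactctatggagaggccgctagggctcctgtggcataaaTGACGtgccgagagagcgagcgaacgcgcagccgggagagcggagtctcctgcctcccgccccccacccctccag
It held 4 half-sites, the farthest at 109 to 105 bases before the start and the nearest at 25 to 21, and 0 CArG boxes. The 2 annotated starts of NR4A1 held 0 matches to any of the motifs searched, which says only that these letters are not in those windows.

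IER3 and IER2 followed each other. IER3 stood at 1.19 with ethanol, 0.13 with estradiol, 0.00 with E2-BSA, 0.26 with E2-BSA plus ICI, -0.23 with E2-BSA plus G15, -0.04 with G15, 0.01 with BSA and -0.19 in untreated cells. IER2 stood at 0.62 with ethanol, 0.08 with estradiol, 0.00 with E2-BSA, 0.08 with E2-BSA plus ICI, -0.18 with E2-BSA plus G15, -0.04 with G15, 0.03 with BSA and -0.08 in untreated cells. Both were highest with ethanol and lowest with E2-BSA plus G15. Across the 8 arrays the pair correlated at r = 0.99, and at r = 0.92 across the 7 arrays without ethanol. These points share arrays and centring, and each gene rests on 1 probe set. EGR1 and NR4A1 correlated at r = 0.84 over the same 7 arrays, EGR1 and IER3 at r = 0.68, and EGR1 and IER2 at r = 0.38. EGR4, whose probe sets did not follow each other, reached r = 0.90 with NR4A3 there. The lowest value of any pair was -0.41, for EGR3 and NR4A3.

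SRF, whose product binds the CArG box described above, is present in most cells without stimulation. It varied little, from 0.29 with ethanol to -0.12 with BSA, and without ethanol its range was 0.20. Its 2 probe sets differed: 202401_s_at stood at 0.47 with ethanol, against -0.07 in untreated cells, and 202400_s_at at 0.10 with ethanol, against 0.00 in untreated cells. The SRF promoter is shown because it also holds CArG boxes, 2 of them, at 30 to 21 and 10 to 1 bases before the start of the window at chr6:43171019-43171318, plus strand, build GRCh38.p14.
SRF: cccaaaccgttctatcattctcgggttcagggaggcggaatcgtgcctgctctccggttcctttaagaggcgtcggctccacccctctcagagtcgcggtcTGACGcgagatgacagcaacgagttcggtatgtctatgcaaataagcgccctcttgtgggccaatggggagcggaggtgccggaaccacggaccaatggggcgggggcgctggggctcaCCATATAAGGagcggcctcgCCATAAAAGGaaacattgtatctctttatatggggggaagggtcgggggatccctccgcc
The CArG box count was that of EGR1. SRF differed by 0.32 between ethanol and untreated cells, and a link between motif counts and differences was not tested.

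**Figure D2:**
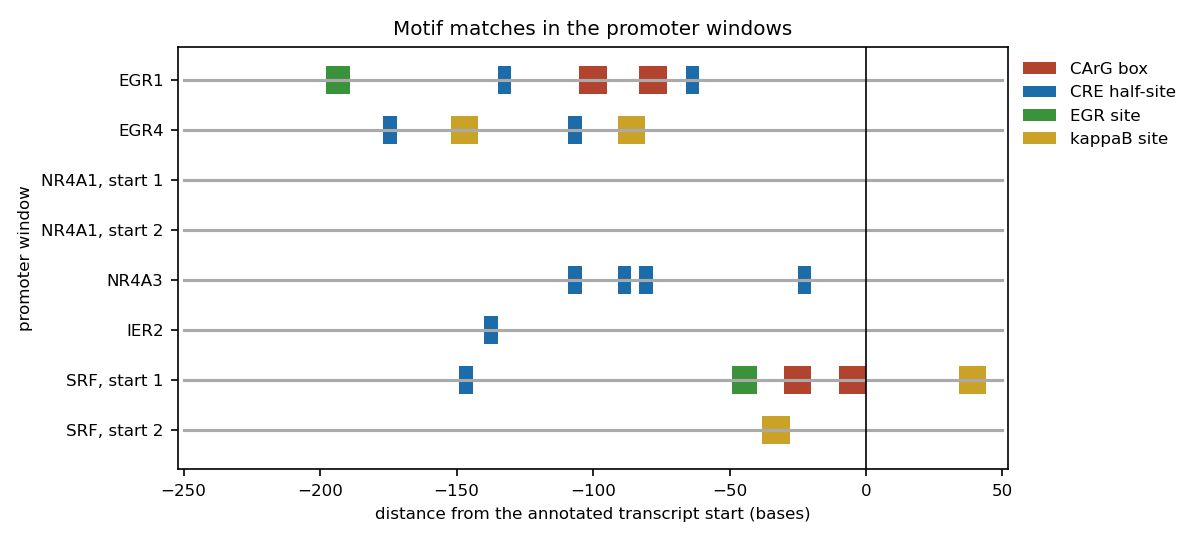
Matches of 4 motifs (coloured boxes) in RefSeq promoter windows of 6 members, drawn by distance in bases from the annotated transcript start (x axis); NR4A1 and SRF have 2 annotated starts each. CArG boxes lie only in the windows of EGR1 and of the first SRF start among those drawn.

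Besides the CArG box and the half-site, the windows were searched on both strands for the full CRE (TGACGTCA), the EGR site (GCGNGGGCG), the NBRE bound by NR4A receptors (AAAGGTCA) and, by name, the kappaB site. The full CRE contains the half-site. EGR1 and the first SRF start each held 1 EGR site, which 9.43% of all windows held, and no window of EGR1, EGR4, NR4A1, NR4A3, IER2 or SRF held a full CRE or an NBRE. EGR4 held 2 kappaB sites and each SRF start 1, a motif present in 11.3% of all windows. IER2 held 1 CRE half-site and 0 CArG boxes. Sequences of NR4A2, IER3 and EGR3 were not used here.

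The ethanol array was set against untreated cells. With 1 such array, the vehicle and whatever else sets that array apart cannot be told apart. Of the 9 members, 5 were at least 2-fold higher and 0 lower, where 0.87% of all genes were higher and 0.0152% lower. They were NR4A2 by 2.03 (4.08-fold), EGR1 by 1.84 (3.57-fold), IER3 by 1.37 (2.59-fold), EGR3 by 1.12 (2.18-fold) and NR4A3 by 1.08 (2.12-fold). IER2 was higher by 0.70, which brought the count past 1.5-fold to 6, where 2.98% of all genes were. NR4A1 differed by 0.48, SRF by 0.32 and EGR4 by -0.09. In all 8 of 9 members were above 0, as 42.1% of all genes were. The median over the members was 1.08, beside -0.03 over all genes. Only 35 genes had a larger difference than NR4A2, and 50 a larger one than EGR1. Against BSA, a reference added after the data were seen, 4 members were at least 2-fold higher, where 1.09% of all genes were: NR4A2 by 2.19, EGR1 by 1.73, NR4A3 by 1.33 and IER3 by 1.18. EGR3 fell short of it there, at 0.95.

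For EGR1 and NR4A2 the 3 probe sets each gave the same answer, between 1.78 and 1.93 for EGR1 and between 2.01 and 2.06 for NR4A2. The NR4A3 probe sets ranged from -0.04 to 2.33. Forcing all arrays to 1 distribution by quantile normalization left 1 member at 2-fold, EGR1 at 1.08, with NR4A2 at 0.94, IER3 at 0.76, EGR3 at 0.68 and NR4A3 at 0.42.

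**Figure D3:**
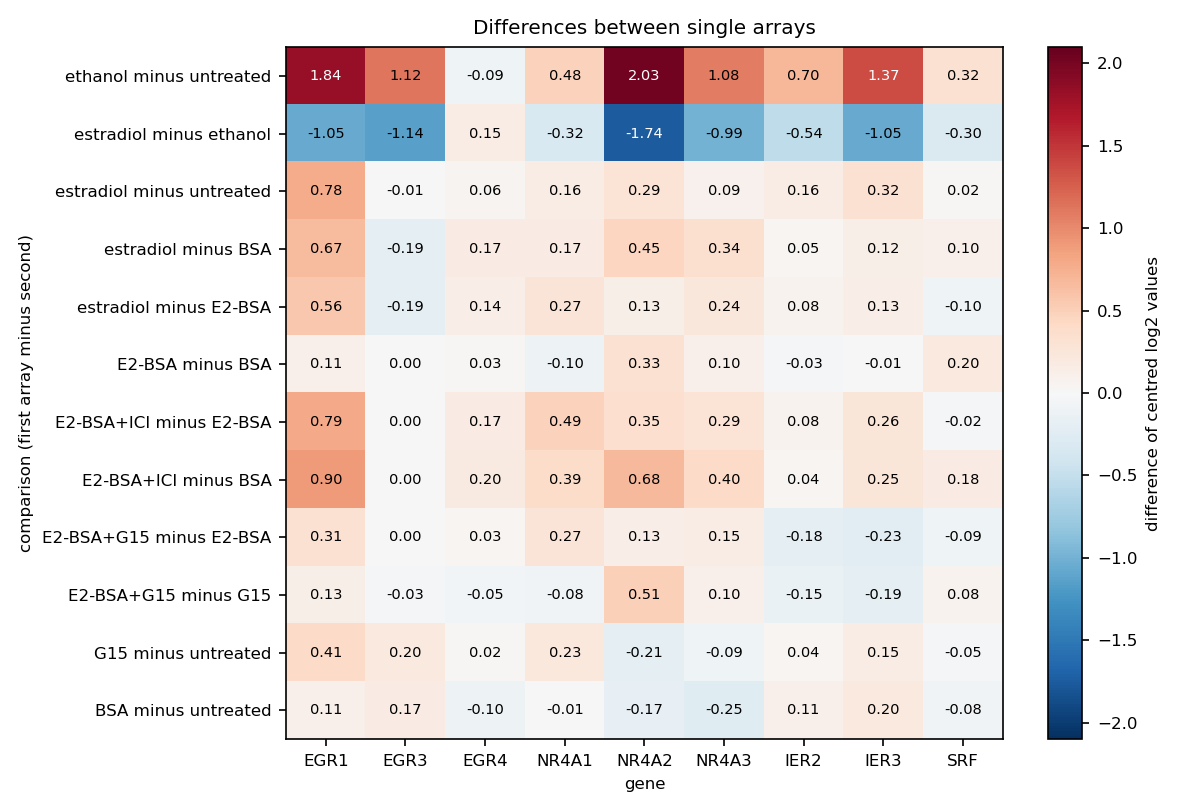
Differences of centred log2 values between 2 arrays for each gene (columns) and comparison (rows, first array minus second). The ethanol minus untreated row reaches 2.03, in NR4A2, and the estradiol minus ethanol row -1.74, in the same gene.

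Estradiol was compared with its ethanol vehicle, and 4 members were at least 2-fold lower and 0 higher, where 0.865% of all genes were lower and 0.0101% higher. NR4A2 differed by -1.74, EGR3 by -1.14, and IER3 and EGR1 by -1.05 each. NR4A3 was just inside the threshold at -0.99, IER2 stood at -0.54, NR4A1 at -0.32, SRF at -0.30 and EGR4 at 0.15. This comparison shares the ethanol array with the one before. After quantile normalization no member was at 2-fold, with NR4A2 at -0.56 and EGR1 at -0.10. Against other arrays the direction turned: 8 of 9 members were higher with estradiol than in untreated cells, with 47.2% of all genes above 0. Likewise 8 of 9 were higher than with BSA, with 48.5% of all genes above 0. From the untreated array, only EGR1 (0.78), IER3 (0.32) and NR4A2 (0.29) differed by more than the yardstick of 0.166. The probe sets of NR4A1, NR4A3, EGR4 and SRF had both signs there. From the BSA array, IER3 (0.12), SRF (0.10) and IER2 (0.05) were higher by less than the yardstick.

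EGR1 had the largest estradiol difference of any member from the untreated and BSA arrays. Neither of these received ethanol while the estradiol cells may have, so hormone and vehicle cannot be told apart here. EGR1 was higher by 0.78 (1.72-fold) than in untreated cells, with its probe sets between 0.65 and 1.01, and only 5 of the 19775 genes had a larger difference. It was the only member past 1.5-fold there, as 0.086% of all genes were, and 0% of all genes were at least 2-fold higher. Against BSA it was higher by 0.67, and 0.137% of all genes were past 1.5-fold. The next members against untreated were IER3 at 0.32, NR4A2 at 0.29 and IER2 at 0.16, and against BSA they were NR4A2 at 0.45 and NR4A3 at 0.34. EGR3 was the exception, at -0.01 against untreated and -0.19 against BSA. The member median was 0.16 against untreated and 0.17 against BSA, where the median of all genes was 0.00 in both.

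The coupled hormone was set against its carrier, E2-BSA against BSA. No member reached 1.5-fold, where 0.339% of all genes were higher and 0.662% lower by that much. NR4A2 had the largest difference, 0.33, with all 3 probe sets between 0.30 and 0.37, and SRF followed at 0.20. The 2 SRF probe sets had opposite signs there, at 0.46 and -0.06. EGR1 differed by 0.11, NR4A3 by 0.10, EGR4 by 0.03, IER3 by -0.01, IER2 by -0.03 and NR4A1 by -0.10, and EGR3 stood at 0 on both arrays. Against untreated cells NR4A2 was higher by 0.16 with E2-BSA, a difference below the yardstick.

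Free estradiol and E2-BSA differ by the albumin carrier, and the arrays may differ by ethanol too. Both were labelled 1e-06 M, and whether that figure counts the hormone or the conjugate was not resolved here. Estradiol minus E2-BSA was 0.56 for EGR1, with probe sets between 0.34 and 0.77, and 75 genes had a larger difference. NR4A1 followed at 0.27 and NR4A3 at 0.24. In all 7 of 9 members were above 0, with 44.8% of all genes above 0, and none reached 1.5-fold, where 0.273% of all genes were higher and 0.111% lower by that much. EGR3 at -0.19 and SRF at -0.10 lay below 0. With 1 array each, no interval of these differences can be given.

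**Figure D4:**
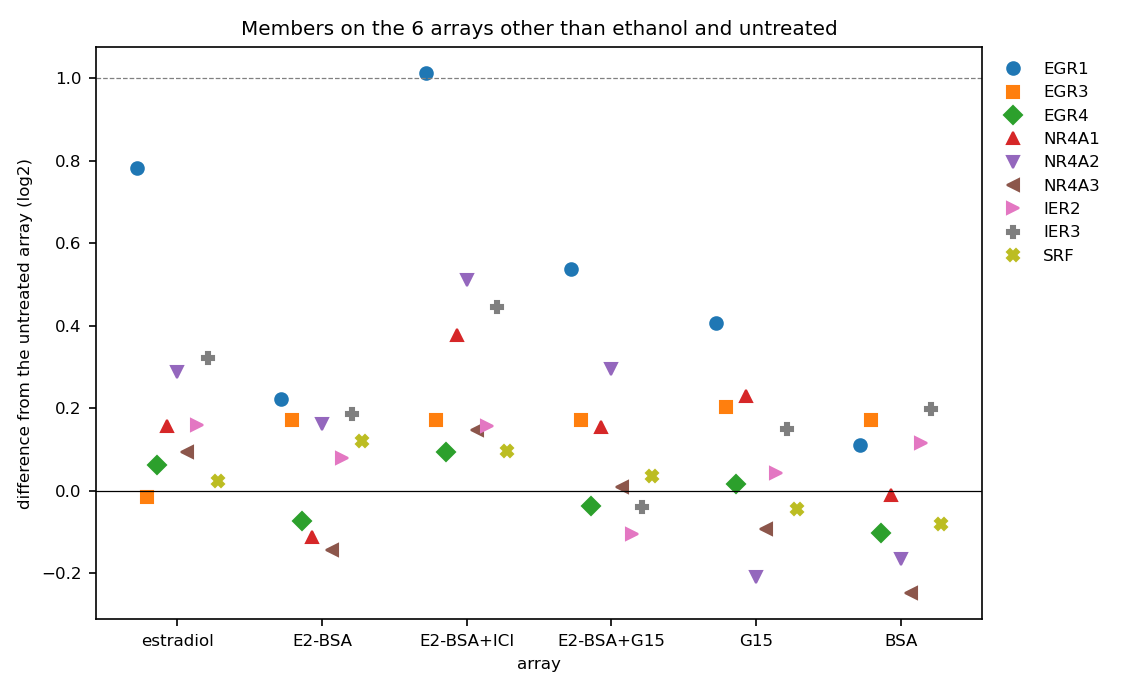
Difference of each gene from the untreated array (y axis, log2) on the estradiol, E2-BSA, E2-BSA+ICI, E2-BSA+G15, G15 and BSA arrays (x axis); the dashed line is 2-fold. EGR1 is the highest point on the estradiol array, at 0.78, and on the E2-BSA+ICI array, at 1.01.

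E2-BSA with ICI was set against E2-BSA without it. What ICI and G15 were dissolved in is not given here, so compound and solvent cannot be told apart. Of the members, 7 of 9 were higher with ICI, where 51.4% of all genes were above 0, SRF stood at -0.02, and EGR3 was at 0 on both arrays. EGR1 was higher by 0.79 (1.73-fold) and was the only member past 1.5-fold, as 1.03% of all genes were, and none reached 2-fold higher, as 0.0303% did. NR4A1 differed by 0.49, NR4A2 by 0.35, NR4A3 by 0.29, IER3 by 0.26, EGR4 by 0.17 and IER2 by 0.08. The EGR1 probe sets ranged from 0.31 to 1.15, and those of NR4A1 from 0.002 to 0.78. The member median was 0.26, beside 0.01 over all genes, with an SD over genes of 0.218.

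NR4A1 had its lowest value on the E2-BSA array, and against BSA its difference with ICI was smaller, at 0.39. For EGR1 and NR4A2 it was larger: against BSA, E2-BSA with ICI was higher by 0.90 for EGR1 and by 0.68 for NR4A2, both past 1.5-fold, as 0.425% of all genes were. Against untreated, EGR1 was higher by 1.01 and just past 2-fold, as 0.0303% of all genes were, with 4 genes larger and its probe sets between 0.66 and 1.40. All 9 members were above 0 in that comparison, with 51.7% of all genes above 0. For IER2 (0.16), NR4A3 (0.15), SRF (0.10) and EGR4 (0.09) that difference was below the yardstick of 0.166. Among the 7 arrays other than ethanol, E2-BSA plus ICI held the highest value for 6 of 9 members (EGR1, EGR4, NR4A1, NR4A2, NR4A3 and IER3), where it did so for 19.2% of all genes. EGR4 (0.10), NR4A3 (0.19) and IER3 (0.26) were there within 0.166 of estradiol, at 0.07, 0.13 and 0.13. NR4A1 (0.28) was within 0.166 of G15, at 0.13. The T cell marker CD3E, 1 of 3 measured immune markers, was also higher with ICI, by 0.64 against BSA and 0.58 against E2-BSA. It rests on 1 probe set, and the other immune markers did not follow it. CD14 differed by 0.22 against BSA and 0.05 against E2-BSA, and PTPRC by -0.04 and -0.03. The part of CD3E in these results was not tested. None of the 8 arrays held cells given ICI alone.

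E2-BSA with G15 was set against E2-BSA alone, and the members' differences had both signs. EGR1 differed by 0.31, NR4A1 by 0.27, NR4A3 by 0.15 and NR4A2 by 0.13, whereas IER3 differed by -0.23, IER2 by -0.18 and SRF by -0.09. None reached 1.5-fold, where 0.435% of all genes were higher and 0.359% lower by that much. The EGR1 probe sets ranged from -0.03 to 0.61. Against G15 alone NR4A2 was higher by 0.51, with probe sets between 0.33 and 0.67 and 57 genes larger, while EGR1 differed by 0.13 and IER3 by -0.19. NR4A2 had its lowest value on the G15 array.

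G15 alone was compared with untreated cells. EGR1 differed by 0.41, NR4A1 by 0.23, EGR3 by 0.20 and IER3 by 0.15, and NR4A2 by -0.21. No member reached 1.5-fold, where 0.364% of all genes were higher and 0.167% lower. For EGR1 all 3 probe sets were higher, by 0.20 to 0.67, and against BSA it was higher by 0.30. NR4A1 differed from BSA by 0.24, whereas EGR3 differed by 0.03, NR4A2 by -0.04 and IER3 by -0.05. Between the compounds added to E2-BSA, ICI minus G15 was 0.49 for IER3, 0.48 for EGR1 and 0.26 for IER2, with 8 of 9 members above 0 and 54.5% of all genes above 0. None of these was past 1.5-fold, where 0.283% of all genes were higher by that much.

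BSA minus untreated gave the members' own differences without hormone, G15 or ICI. They ran from -0.25 for NR4A3 and -0.17 for NR4A2 to 0.17 for EGR3 and 0.20 for IER3, with EGR1 at 0.11 and a median of -0.01. No member reached 1.5-fold, where 0.354% of all genes were higher and 0.202% lower. The estradiol and E2-BSA+ICI differences of EGR1 were larger than any of these.

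**Figure D5:**
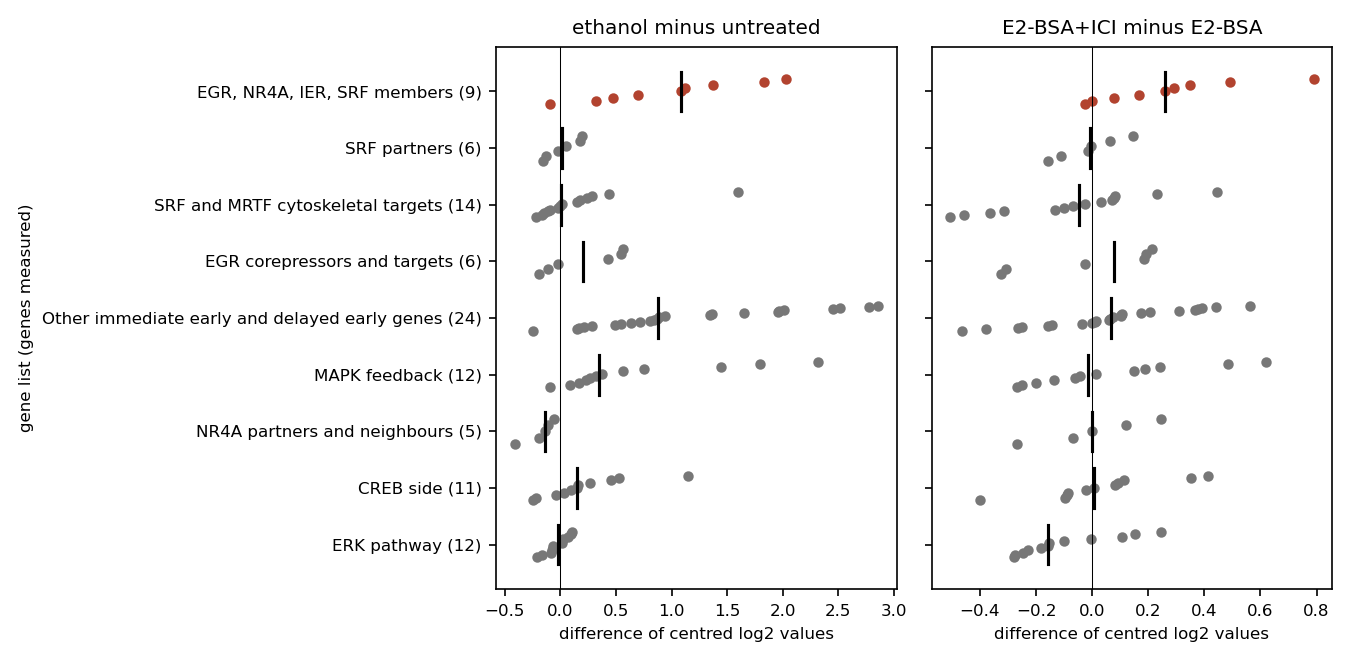
Differences (x axes, log2) of the members (red) and of the genes of 8 companion lists (grey) for ethanol minus untreated (left) and E2-BSA+ICI minus E2-BSA (right); vertical bars are medians and numbers in brackets are genes measured. For ethanol the member median is 1.08, that of other early genes 0.88 and that of SRF and MRTF cytoskeletal targets 0.00.

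Companion lists give the rest of the pathway. Of the other immediate and delayed early genes, for ethanol minus untreated, 10 of 24 were at least 2-fold higher and 0 lower, with a median of 0.88, where 0.87% of all genes were higher and 0.0152% lower. Against BSA 11 of the 24 were. The largest against untreated were MAFF (2.86), a small MAF factor, FOS (2.78), an AP-1 subunit, GADD45A (2.52), a growth arrest gene, ZFP36 (2.46), which shortens the life of inflammatory transcripts, and JUN (2.02). Of 12 MAP kinase feedback genes, 3 were at least 2-fold higher: DUSP10 (2.32) and DUSP5 (1.79), phosphatases of MAP kinases, and SPRY4 (1.45), a Sprouty inhibitor. DUSP10 is known to act on JNK and p38 rather than ERK.

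The lists of SRF's partners and targets were counted for ethanol minus untreated, where 0.87% of all genes were at least 2-fold higher. Lists this short could not tell such a share from none. Among 14 measured cytoskeletal targets of SRF and its MRTF partners, 1 was at least 2-fold higher with ethanol, the matrix protein gene CCN2 at 1.60, and the list median was 0.00. The 6 genes of SRF partners, MRTFA and the ELK genes included, lay between -0.15 and 0.20. Of 6 measured EGR corepressors and targets 0 reached 1.5-fold, where 2.98% of all genes were higher by that much. NAB1, a corepressor of EGR factors, was highest at 0.57. With BSA as reference NAB1 was past 1.5-fold, at 0.65, where 3.83% of all genes were. The 12 measured ERK pathway genes lay between -0.21 and 0.10, and the 5 NR4A partners between -0.41 and -0.06. On the CREB side PDE4B, a cAMP phosphodiesterase, was the only one of 11 at 2-fold, at 1.15.

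With estradiol against untreated, 3 of 24 other early genes were past 1.5-fold higher, led by MAFF at 0.69, and of the feedback genes DUSP4, at 0.84, was the only one of 12, where 0.086% of all genes were. With ICI added to E2-BSA, none of the 24 was past 1.5-fold, FOS being highest at 0.56, and DUSP4 was again the only feedback gene, at 0.62, where 1.03% of all genes were higher by that much. With G15 alone, SPRY2 differed by -0.70 and was the only feedback gene past 1.5-fold, where 0.167% of all genes were lower by that much. Markers of other cell types were followed as well. For ethanol minus untreated 0 of 3 endothelial, 0 of 4 fibroblast, 0 of 3 measured immune and 0 of 7 luminal epithelial markers were past 1.5-fold higher, as 2.98% of all genes were, which such short lists could not tell from none.

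The genes most like 3 members over the arrays were found by Pearson r, as a description without a test. Over the 8 arrays, among 367 other genes with a range of at least 1, C2CD4A (r = 0.96), FOS (0.95) and MAFF (0.93) were nearest to EGR1, and ERRFI1 (0.98), JUN (0.98) and LOC100996740 (0.98) to IER3. Among 368 genes EGR1 (0.89), SNAI1 (0.81) and FOS (0.78) were nearest to NR4A1. The range included the ethanol array, on which these members were highest, so genes high with ethanol were favoured. Over the 7 other arrays, among 1204 genes with a range of at least 1.5-fold, FOS (0.98), LINC03074 (0.94) and CPB2 (0.93) were nearest to EGR1. Among 1205 genes DUSP4 (0.90), HMMR-AS1 (0.89) and FGFBP3 (0.88) were nearest to IER3, and SLC44A3-AS1 (0.97), KRT79 (0.94) and TCERG1L (0.94) to NR4A1. That range included E2-BSA plus ICI, on which EGR1, IER3 and NR4A1 were highest of the 7, so genes high there were favoured. Without that array LINC03074, CPB2, FGFBP3, SLC44A3-AS1, KRT79 and TCERG1L fell short of a 1.5-fold range, and FOS, DUSP4 and HMMR-AS1 did not. FOS stood at 0.35 with estradiol and 0.44 with E2-BSA plus ICI, against -0.32 in untreated cells.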

How the data were processed

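SKBR3 RNA was column-purified and its biotin-labelled copy was hybridized to expression arrays, per the labels' protocols. Of the 54675 deposited probe sets 54613 were not controls, and their values, read as log2, span -2.27 to 7.85. In every one of these probe sets at most 4 arrays lie above 0 and at most 4 below, as after centring on a median. The sources used here do not give summarization, normalization, software or the base of the log. If the base were e, folds would be larger.

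The 62 control probe sets were left out, and no filter on low values was possible. Symbols came from the platform annotation, which gives 1 gene for 41091 probe sets, several for 1801 and none for 11721, and 41037 were matched to a current record. Differences, counts and correlations were computed with Python 3.11.15 and pandas 2.3.3. Shifts planted in simulated data tested the ethanol minus untreated difference and its 2-fold rule, and no correlation. Promoter windows are RefSeq's, build GRCh38.p14. For 1 array per condition the number of arrays limits the precision.

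The text names all members, the 3 genes most like EGR1, NR4A1 and IER3, and companion genes at 2-fold (up to 5 a list) or the largest 2. Other companion genes were named after their values were seen. The members and lists were chosen with earlier results of these data known. Alternatives were another summary of probe sets, leaving out _x_at probe sets, quantile normalization, other reference arrays, other thresholds and reading the values as natural logs.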

Additional observations from a re-analysis of the deposited data

How the results depend on the processing

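No paired analysis was possible because each condition has 1 array and the labels carry no shared replicate numbers. Of 100 recomputed counts and medians, 87 stayed within 1.5 times the count, or within 0.166 of the median. The main count was 0 in every comparison except ethanol minus untreated and estradiol minus ethanol, so most counts that stayed were 0. The 87 therefore says little about the comparisons with members at 2-fold. Quantile normalization moved the ethanol minus untreated count to 1 and the median to 0.44, and the estradiol minus ethanol count to 0 and the median to -0.22; by construction it pulls in the long upper tail of the ethanol array. With the probe set of largest SD the estradiol minus ethanol median was -0.79. With the untreated array as reference for estradiol, in place of ethanol, the count was 0, the median 0.16, and EGR1 (0.78), NR4A2 (0.29) and IER3 (0.32) turned positive. With BSA as reference the count was 0, the median 0.17, and the same genes stood at 0.67, 0.45 and 0.12. For E2-BSA+ICI minus E2-BSA the count moved to 1, which was EGR1, with the largest-SD probe set, the untreated array as reference, a 1.5-fold threshold, or natural logs. Of 378 recomputed single-gene differences, 298 moved by less than 0.166. In 37 the sign changed, 6 of them from a difference past 2-fold, those of EGR1, NR4A2 and IER3 just named; 14 of the 37 were estradiol differences with another reference, those of NR4A1, NR4A3, IER2 and SRF included; apart from the choice of probe sets, the normalization and the reference, the cause was not tested. With BSA as reference for ethanol, added after seeing the data, the count was 4 and the median 0.95. Signal over background is unknown here, so a member near 0 on all arrays, such as EGR4, may be unexpressed or unchanged.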
